A study of Mus musculus with 16 samples.

Results

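The 46 genes described here encode the proton pump that acidifies the lysosome, lysosomal membrane proteins, luminal enzymes other than cathepsins, and the MiT transcription factors. They were taken by name from a list that was drawn up with earlier results of these data known, with no threshold on a measured value, and make up 46 of the 50600 genes in the count table. By role they comprised 6 subunits of the membrane sector of the pump, 8 of its cytosolic sector, 2 accessory subunits, 7 membrane proteins, 11 enzymes that degrade glycans, 6 proteins that handle lipids, 3 peptidase and granulin genes, and 3 MiT factors. All 46 passed the filter on low counts.

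RNA sequencing was done on cells sorted from male mice of 13 to 14 weeks, in 16 libraries that fall into 4 groups of 4. Control microglia were CX3CR1+ cells from control brain, and ischemic microglia were CX3CR1+ cells from the ipsilateral (ischemic) hemisphere, both from the CX3CR1CreERT2:Rosa26-tdT line, in which a drug-inducible Cre at the Cx3cr1 gene switches on the red reporter tdTomato. Brain CD11c cells were CD11c-eYFP+ cells of the ischemic hemisphere and spleen CD11c cells were CD11c-eYFP+ cells of the spleen, both from Tg(Itgax-Venus)1Mnz mice, in which the promoter of Itgax, the gene for CD11c, drives a yellow fluorescent protein. Microglia and CD11c cells thus came from different mouse lines, so that line and cell population cannot be told apart in any comparison between them. The disease state of the spleen donors and the time between ischemia and sorting were not given in the sources used here. Cx3cr1 is also active in other myeloid cells and Itgax in macrophages and activated microglia as well as in dendritic cells, so neither reporter marks a single cell type. Whether each library had its own animal is not recorded in the labels, and p-values measure only the spread between these libraries.

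Lysosomes break down material taken in by endocytosis and phagocytosis, a main task of microglia and macrophages after tissue injury. The V-ATPase pumps protons into the lumen. Its cytosolic V1 sector hydrolyses ATP, its V0 sector passes the protons through the membrane, and the sectors can be assembled and taken apart. Luminal hydrolases work at acid pH, and inherited loss of single enzymes causes lysosomal storage diseases. The MiT factors TFEB, TFE3 and MITF bind a short E-box variant, called the CLEAR element, near the start of many lysosomal genes, and are controlled largely through phosphorylation and entry into the nucleus, which RNA levels do not measure.

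Depth was 31569304 to 48245164 counts per library. Values below are counts scaled to a common library size with TMM factors (CPM), and a gene is called higher or lower where its adjusted p in the test over all 16345 genes was under 0.05. The sorted populations matched their labels in part. The summed CPM of 8 microglial markers was 19296 to 23164 in control microglia, 11334 to 17069 in ischemic microglia, 4955 to 6112 in brain CD11c cells and 106 to 165 in spleen CD11c cells. The sum of 8 dendritic cell markers was 477 to 997, 162 to 389, 8575 to 22796 and 6522 to 11152 in the same order. The spleen libraries also carried 5960 to 9800 CPM of B and plasma cell markers, against 1.31 to 14.7 in brain CD11c cells, and 3894 to 5606 CPM of red pulp macrophage markers. Within the brain CD11c group, replicates 1 and 2 stood apart from replicates 3 and 4, and the titles of these libraries follow different patterns. Their dendritic cell marker sums were 8575, 11827, 19149 and 22796 CPM in replicates 1 to 4, and their border macrophage marker sums were 727, 589, 184 and 206 CPM. Fewer cells of a type and less RNA per cell cannot be told apart in such bulk libraries.

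The 46 genes took the largest share of reads in ischemic microglia and the smallest in spleen CD11c cells. They accounted for 2.23, 2.44, 2.39 and 2.42% of all counted reads in the control microglia libraries and for 3.58, 3.68, 3.57 and 3.65% in the ischemic microglia libraries. The shares were 3.51, 3.49, 2.504 and 2.41% in brain CD11c replicates 1 to 4 and 1.20, 0.991, 1.10 and 0.922% in the spleen libraries. The ischemic libraries all lay above the control libraries, and the spleen libraries lay below all others. Brain CD11c replicates 1 and 2 sat just under the ischemic microglia and replicates 3 and 4 at the level of control microglia. Most of these reads came from a few genes. Levels per kilobase use the merged length of all annotated exons of a gene, which can exceed the length of a single transcript. The order between genes may therefore depend on the annotation. Per kilobase of exon, the highest levels in ischemic microglia were 2865 ± 146 CPM per kb for Psap, the precursor of the saposins that present sphingolipids to their hydrolases, 2738 ± 80.8 for Lgmn, the asparagine-specific peptidase legumain, and 1860 ± 24.6 for Grn, the precursor of the granulins (SD, n = 4). The same 3 genes led in control microglia and in brain CD11c cells, whereas Psap, Cd68 and Lgmn led in the spleen, where Psap reached 1101 ± 164 and Lgmn 168 ± 26.0 CPM per kb.

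**Figure D1:**
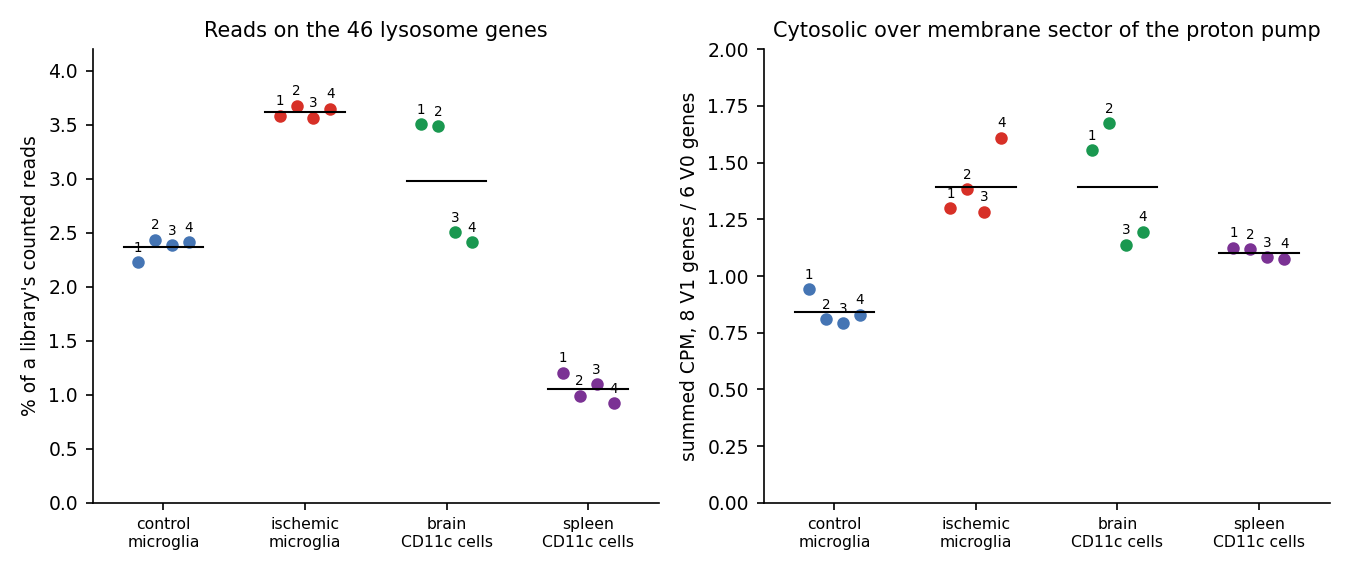
Left: reads on the 46 lysosome genes as a percentage of all counted reads, 1 point per library with its replicate number, bars at the group means. Right: summed CPM of the 8 V1 genes divided by that of the 6 V0 genes in the same libraries. The ischemic microglia lie above the control microglia in both panels, and brain CD11c replicates 1 and 2 lie above replicates 3 and 4.

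Ischemic microglia were compared with control microglia to see how the genes differ after ischemia in cells sorted on the same reporter. In ischemic microglia 32 of the 46 genes were higher and 2 lower, which is 69.6% and 4.35% of the members against 17.7% and 18.0% of all genes tested. With library totals in place of TMM, 26 were higher and 4 lower, against 2140 higher and 4242 lower of all 16345 genes. Of all calls, 33.5% were then of higher genes instead of 49.5%. Ids (-0.30, adjusted p = 0.0415) and Tfe3 (-0.31, adjusted p = 0.0458), not called with TMM, were then among the lower genes. With TMM the median log2 fold change of the 46 genes was 0.62, against -0.05 over all genes. The largest difference was 5.07-fold, and 8 members were higher by at least 2-fold, against 7.53% of all genes. In 33 members every ischemic library lay above every control library, a separation seen in 19.9% of all genes. Of the 34 members called, 28 kept their call in each of the 8 fits that left out a library. Those that did not were Atp6v1g1, Hexa, Neu1, Lipa, Smpd1 and Lgmn. In the same comparison 5 of 8 microglial markers were lower and none higher, 2 of 8 dendritic cell markers were higher and 3 lower, and 2 of 6 red pulp macrophage markers were higher and 2 lower, and their part in these differences was not tested. The 2 lower lysosome genes were Smpd1 and Tfeb, and 1 was left without control replicate 2, 3 or 4 or without ischemic replicate 1, 2 or 4.

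The proton pump did not rise evenly. All 8 genes of the V1 sector were higher in ischemic microglia, with log2 fold changes from 0.40 to 1.46, and all 8 separated the groups completely. Atp6v1a, the catalytic A subunit, had 161, 103, 105 and 113 CPM in control replicates 1 to 4 and 279, 330, 286 and 429 in the ischemic replicates. Its log2 fold change was 1.46 ± 0.25 (SE, adjusted p = 0.000338), the largest of the V-ATPase genes. Atp6v1b2, the B subunit found in brain and macrophages that shares the ATP sites with A, had 156 to 174 CPM in control and 288 to 345 CPM in ischemic microglia (log2 fold change 0.94 ± 0.15, adjusted p = 0.000234). Atp6v1g1, a subunit of the peripheral stalk, had the smallest change (0.40 ± 0.14, adjusted p = 0.0312), and its adjusted p was above 0.05 in 7 of the 8 fits that left out a library, all but that without control replicate 4.

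In the V0 sector 2 of 6 genes were higher and none was lower. Atp6v0d1, which joins V0 to the central stalk, had 133, 119, 118 and 124 CPM in control and 182, 204, 179 and 226 CPM in ischemic microglia (log2 fold change 0.68 ± 0.14, adjusted p = 0.00166). Atp6v0e, a small membrane subunit, was higher by 0.65 ± 0.10 (adjusted p = 0.000172). The genes of the proton path itself were not called. Atp6v0c, which encodes the proteolipid of the rotating ring, had 63.2 to 105 CPM in control and 57.0 to 107 CPM in ischemic microglia (0.05 ± 0.20, adjusted p = 0.888). Atp6v0b, another ring subunit, differed by -0.05 ± 0.09 (adjusted p = 0.685) and Atp6v0a1, an isoform of the a subunit, by -0.06 ± 0.15 (adjusted p = 0.796). Tcirg1, the a subunit isoform of osteoclasts that macrophages also express and that is not one of the 46, had 791 to 879 CPM in control and 711 to 853 CPM in ischemic microglia (-0.10, adjusted p = 0.533). The ratio of the summed CPM of the 8 V1 genes to that of the 6 V0 genes was 0.792 to 0.943 in control microglia and 1.28 to 1.61 in ischemic microglia, with no overlap. It was 1.14 to 1.67 in brain CD11c cells and 1.08 to 1.12 in spleen CD11c cells. Of the accessory subunits, Atp6ap2 was higher in ischemic microglia (0.64 ± 0.12, adjusted p = 0.000851) and Atp6ap1 was not called (0.23 ± 0.14, adjusted p = 0.213). Atp6v0d2, the d subunit isoform of osteoclasts and some macrophages, had very low values, 0.0531 to 0.576 CPM in the 8 microglial libraries.

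Among the 11 glycan-degrading enzymes 9 were higher in ischemic microglia, 5 of them by at least 2-fold. Gla, the alpha-galactosidase A that removes terminal galactose from globotriaosylceramide and is deficient in Fabry disease, lies on chromosome X (134588149 to 134601125, minus strand, GRCm38). It had 78.9, 17.6, 18.0 and 27.3 CPM in control replicates 1 to 4 and 145, 226, 158 and 190 CPM in the ischemic replicates. Every ischemic library was higher than every control library, but control replicate 1 stood well above the other 3. The log2 fold change was 2.34 ± 0.43 (adjusted p = 0.000715) and became 3.09 without control replicate 1. Galns, a sulfatase of keratan sulfate, rose from 19.5 to 23.7 CPM in control to 72.1 to 85.6 CPM in ischemic microglia (1.90 ± 0.30, adjusted p = 0.000209). Gusb, the beta-glucuronidase, rose from 295 to 315 CPM to 891 to 1009 CPM (1.67 ± 0.22, adjusted p = 3.21e-05). Glb1, the beta-galactosidase, and Naglu, which acts on heparan sulfate, were higher by 1.17 ± 0.17 and 1.09 ± 0.13. Idua (0.06 ± 0.11, adjusted p = 0.731) and Ids (-0.15 ± 0.10, adjusted p = 0.274), which remove iduronic acid and its sulfate from the same chains, were not called. Hexa, the alpha chain of beta-hexosaminidase, was called at 0.60 ± 0.19 (adjusted p = 0.0231), although ischemic replicate 2 had 1036 CPM and the other 3 had 1684 to 1775 CPM, so that the groups overlapped. Its adjusted p was above 0.05 in 4 of the 8 fits that left out a library, without control replicate 1 or ischemic replicate 1, 3 or 4.

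Of the 3 peptidase and granulin genes 2 were higher, and of the 7 membrane protein genes 5 were higher, with none lower in either group. Grn (chromosome 11, 102430315 to 102437048, plus strand) had 1819, 2188, 2185 and 2215 CPM in control and 6386, 6584, 6427 and 6453 CPM in ischemic microglia, a log2 fold change of 1.62 ± 0.16 (adjusted p = 2.69e-06). No ischemic library came near the control range. Loss of progranulin causes frontotemporal dementia or, when both copies are lost, a storage disease of the neuronal ceroid lipofuscinosis group. Cd63, a tetraspanin of late endosomes and lysosomes (chromosome 10, 128900989 to 128912822, plus strand), had 92.2, 91.3, 95.1 and 104 CPM in control and 328, 368, 355 and 347 CPM in ischemic microglia (1.87 ± 0.23, adjusted p = 2.06e-05). Lamp1 and Lamp2, the main glycoproteins of the lysosomal membrane, were higher by 0.83 ± 0.17 and 0.84 ± 0.14, and Cd68, a macrophage relative of the LAMP proteins, by 0.79 ± 0.24. Mcoln1, the calcium channel TRPML1 (-0.16 ± 0.10, adjusted p = 0.216), and Npc1, the membrane cholesterol transporter (0.17 ± 0.17, adjusted p = 0.46), were not called. Lgmn was called at 0.51 ± 0.19 (adjusted p = 0.0498), with no overlap between 4287 to 4599 CPM in control and 6136 to 6525 CPM in ischemic microglia, but its adjusted p was 0.0822 to 0.109 in the 8 fits that left out a library. Tpp1, the peptidase deficient in another ceroid lipofuscinosis, was not called (0.39 ± 0.17, adjusted p = 0.0826). These tests took their spread from all 16 libraries, including the brain CD11c group. With only the 8 microglial libraries in the model, Tpp1 was called higher (0.43, adjusted p = 0.00161). Npc1 (0.21, adjusted p = 0.032) and Atp6ap1 (0.27, adjusted p = 0.00954) were then higher too. The other 43 members, Lgmn among them, were called or not called as before.

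Lipid handling genes were mixed. Npc2, the luminal partner of Npc1, had 702 to 840 CPM in control and 1313 to 1611 CPM in ischemic microglia (0.98 ± 0.12, adjusted p = 2.03e-05). Psap, Ppt1, a thioesterase that removes palmitate from proteins, and Asah1, the acid ceramidase, were higher by 0.68 ± 0.17, 0.64 ± 0.13 and 0.40 ± 0.11. Lipa, the acid lipase that releases cholesterol and fatty acids, was called at 0.55 ± 0.21 (adjusted p = 0.049), which rose above 0.05 in 7 of 8 fits that left out a library, all but that without ischemic replicate 2. Smpd1, the acid sphingomyelinase, was lower, with 60.1, 80.9, 78.7 and 76.6 CPM in control and 57.6, 56.6, 62.5 and 55.0 CPM in ischemic microglia (-0.35 ± 0.13, adjusted p = 0.0452). That call was lost in 6 of the 8 fits without a library, all but those without control replicate 1 or ischemic replicate 3.

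The MiT genes did not rise with the enzymes. Tfeb fell from 56.8, 63.2, 60.2 and 71.6 CPM in control to 44.1, 40.7, 41.2 and 28.4 CPM in ischemic microglia, with no overlap (log2 fold change -0.71 ± 0.16, adjusted p = 0.00331). Tfe3 had 274 to 333 CPM in control and 262 to 279 CPM in ischemic microglia (-0.16 ± 0.10, adjusted p = 0.209). Mitf had 46.4 to 52.4 and 49.7 to 58.8 CPM (0.11 ± 0.15, adjusted p = 0.631). Per kilobase, Tfe3 reached 32.6 ± 2.79 CPM per kb in control microglia (SD, n = 4). Tfec, a further MiT gene of macrophages outside the 46, stayed between 1.27 and 4.26 CPM in the microglial libraries and was not called (0.24, adjusted p = 0.706).

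**Figure D2:**
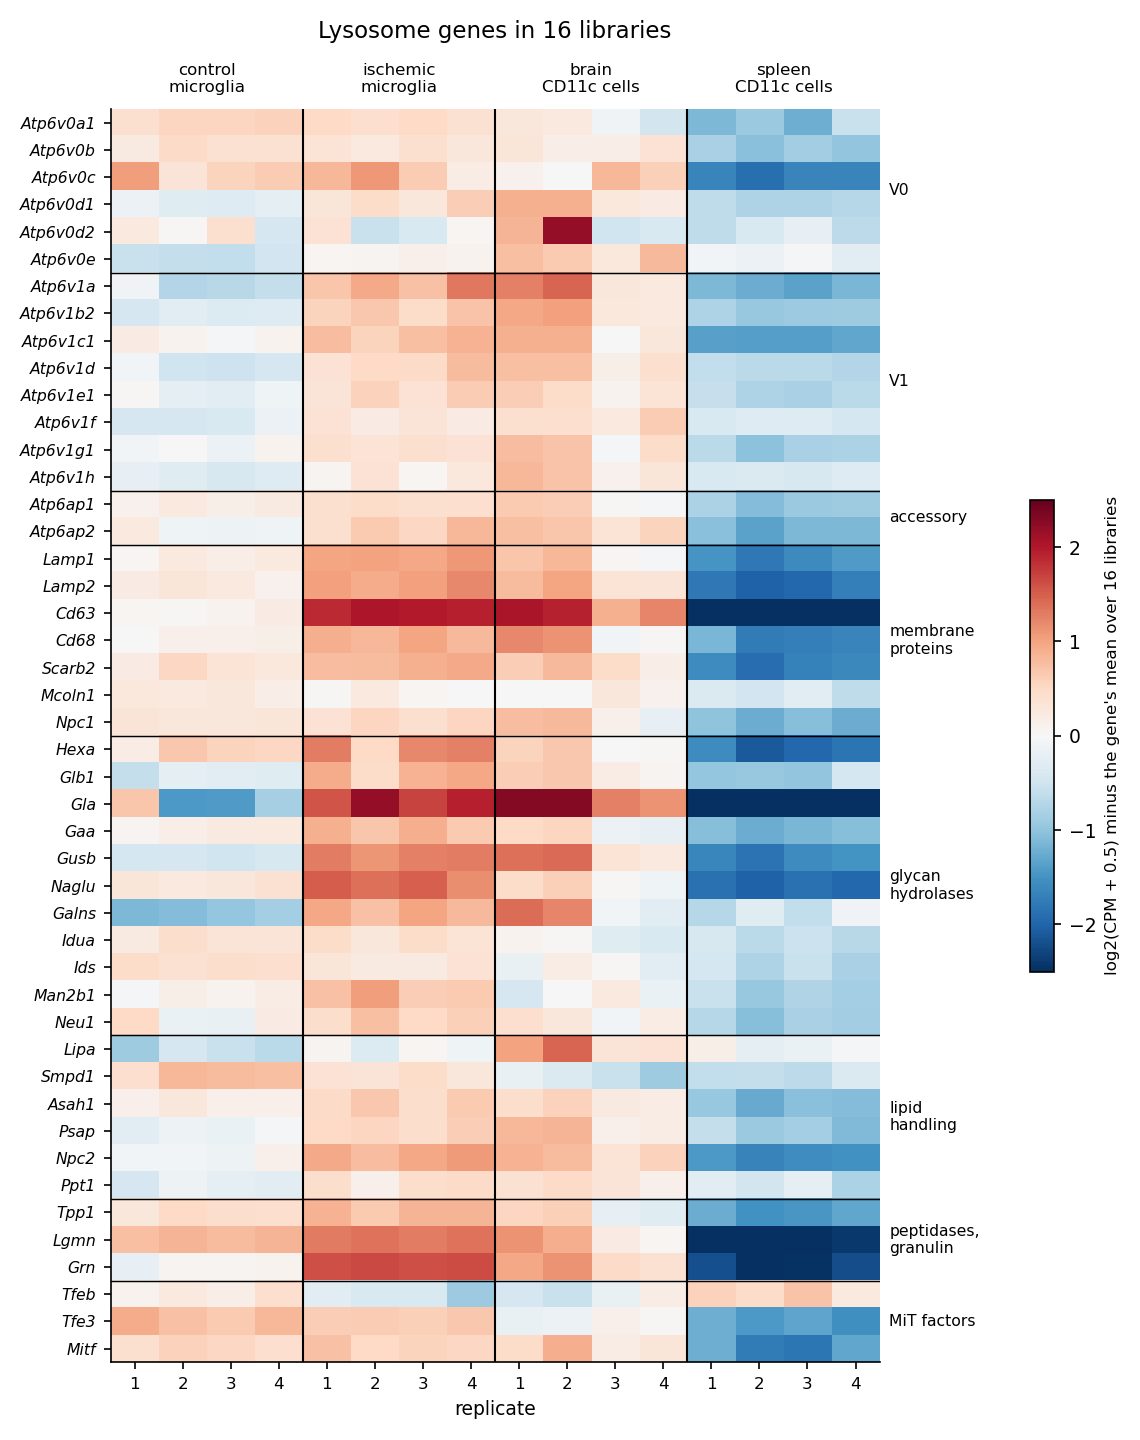
Each row is a lysosome gene and each column a library, ordered by group and replicate. Colour shows log2(CPM + 0.5) minus the mean of the gene over the 16 libraries, with the scale ending at 2.5 in either direction. The V1 genes and most membrane protein and enzyme genes are red in ischemic microglia and in brain CD11c replicates 1 and 2 and blue in the spleen, and the Tfeb row runs the other way.

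The promoters of the genes were also searched for the CLEAR core. RefSeq promoters of GRCm38.p6, from 250 bases before to 50 after the start, were found for 38 of the 46 genes and for 27025 genes in all. The palindrome TCACGTGA stood in 5 of the 38 (13.2%) and in 1.12% of all promoters. The variant TCATGTGA, searched on both strands, stood in 5 of the 38 (13.2%) and in 1.15% of all. The bare E-box CACGTG, which TCACGTGA contains, stood in 11 of the 38 (28.9%) and in 8.09% of all. These shares were not particular to the 46 genes. Of the other lysosome genes described below, 71 had a promoter. Among those, 11.3% held TCACGTGA, 7.04% TCATGTGA and 23.9% CACGTG. Gla had 3 matches in 1 short stretch on the minus strand at chrX:134601182-134601244, beginning 228, 211 and 195 bases before the RefSeq start. That stretch and the windows of 3 other members are shown because they hold all matches that end before the start, apart from 1 in Atp6v0c. Capitals mark the match, and each sequence reads 5′ to 3′ along the strand of its gene.
Gla: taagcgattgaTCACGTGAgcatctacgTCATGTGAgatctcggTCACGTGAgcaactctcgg
Atp6v1a (chr16:44139373-44139402, minus strand, 132 bases before the start): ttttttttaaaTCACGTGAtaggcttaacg
Mcoln1 (chr8:3500462-3500491, plus strand, 46 bases before the start): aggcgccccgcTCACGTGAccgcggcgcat
Grn (chr11:102430285-102430314, plus strand, 211 bases before the start, TCATGTGA read on the other strand): tgattctctaaTCACATGAtccctagaaat
The windows of Atp6v1a and Mcoln1 lie inside the longer gene models of GENCODE, and those of Gla and Grn lie before them. The other members with TCACGTGA were Atp6v0d1 and Atp6v0e, with the match across or just after the start. Of the 5 members with TCACGTGA, 4 were higher in ischemic microglia (median log2 fold change 0.68), as were 22 of the 33 members without it (median 0.62). The 4 were Gla, Atp6v1a, Atp6v0d1 and Atp6v0e, and Mcoln1 was not called. Whether any factor binds these letters was not measured here.

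Of 91 other lysosome genes from a separate list, 85 could be tested. In ischemic microglia 33 were higher and 8 lower, with a median log2 fold change of 0.25. These are 38.8% and 9.41% of those tested, against 17.7% and 18.0% of all genes. Among the 25 further hydrolases 14 were higher and 2 lower (56% and 8%). Gnptab, which makes the mannose 6-phosphate tag that sends enzymes to lysosomes, rose from 36.6 to 38.3 CPM to 82.3 to 97.6 CPM (1.28, adjusted p = 7.52e-05). Pld3, a lysosomal nuclease, and Mfsd12, a cysteine transporter, were higher by 1.20 and 1.13. Igf2r, the receptor that carries tagged enzymes, had 0.82 to 1.95 CPM in control and 12.8 to 24.0 CPM in ischemic microglia (3.84, adjusted p = 0.000347). Zkscan3, a zinc finger repressor of lysosomal genes (-1.05, adjusted p = 7.66e-06), and Cd164, a sialomucin (-1.03, adjusted p = 4.58e-06), had the largest decreases among the other lysosome genes called with at least 20 CPM in control microglia, followed by Sgsh, a sulfamidase of heparan sulfate (-0.73, adjusted p = 0.00233). Below that level, Atp6v1g2, a V1 subunit isoform with a mean of 7.78 CPM in control and 3.76 CPM in ischemic microglia, was lower by a log2 fold change of -1.05 (adjusted p = 0.000643) and was named after its values were seen.

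Brain CD11c cells were then set against ischemic microglia from the same injured tissue. This comparison shares the ischemic libraries with the one above, so the lists of calls are not independent. Brain CD11c cells had higher levels of 2 of the 46 genes and lower levels of 14, 4.35% and 30.4% of the members against 19.7% and 19.1% of all genes, with a median log2 fold change of -0.19 against 0.00 over all genes. With library totals 4 were higher and 11 lower, against 3964 higher and 2388 lower of all 16345 genes. Of all calls, 62.4% were then of higher genes instead of 50.7%. By role, 6 of the 11 glycan enzymes and all 3 peptidase and granulin genes were lower with all 4 brain CD11c libraries, and 4 and 1 of these with replicates 1 and 2 alone. None of the 8 V1 genes was called with all 4 libraries. With replicates 1 and 2 alone 3 V1 genes were higher, and with replicates 3 and 4 alone 3 were lower. All 8 microglial markers were lower and all 8 dendritic cell markers higher in the same comparison, and their part in these differences was not tested.

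Naglu (chromosome 11, 101070012 to 101077672, plus strand) showed the largest decrease. It had 177, 195, 131 and 119 CPM in brain CD11c replicates 1 to 4 and 370, 335, 363 and 289 CPM in ischemic microglia, with no overlap (log2 fold change -1.13 ± 0.13, adjusted p = 5.64e-06). Grn had 4099, 4532, 2914 and 2712 CPM, all under the lowest ischemic microglia library at 6386 CPM (-0.86 ± 0.16, adjusted p = 0.000423). Smpd1 (-0.85 ± 0.13), Man2b1, the lysosomal alpha-mannosidase (-0.83 ± 0.14), and Hexa (-0.75 ± 0.19) followed, of which Hexa was not called with replicates 1 and 2 alone (-0.48, adjusted p = 0.0775). Lgmn had 5518, 4787, 2939 and 2642 CPM against 6136 to 6525 CPM in ischemic microglia (-0.68 ± 0.19, adjusted p = 0.011), and was not called with replicates 1 and 2 alone (-0.30, adjusted p = 0.0933). Tfe3 was lower as well, with 152 to 189 CPM against 262 to 279 CPM (-0.67 ± 0.10, adjusted p = 3.57e-05), while Tfeb (0.25 ± 0.16, adjusted p = 0.243) and Mitf (-0.09 ± 0.15, adjusted p = 0.68) were not called.

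The 2 higher genes were Lipa and Atp6v0e. Lipa (chromosome 19, 34492318 to 34527474, minus strand) had 576, 794, 362 and 368 CPM in brain CD11c replicates 1 to 4 and 303, 228, 297 and 269 CPM in ischemic microglia, without overlap (0.94 ± 0.21, adjusted p = 0.00187). Atp6v0e had 193, 180, 138 and 202 CPM against 118 to 125 CPM (0.55 ± 0.10, adjusted p = 0.000454). Gla (-0.02 ± 0.41, adjusted p = 0.987) and Cd63 (-0.36 ± 0.22, adjusted p = 0.216) were not called with all 4 brain CD11c libraries. Cd63 was lower with replicates 3 and 4 alone (-0.88, adjusted p = 0.00199) and not called with replicates 1 and 2 alone (0.02, adjusted p = 0.946). Gla had 241 and 243 CPM in replicates 1 and 2 and 118 and 107 CPM in replicates 3 and 4, around 145 to 226 CPM in ischemic microglia. Of the 85 other lysosome genes tested 11 were higher and 31 lower, 12.9% and 36.5% against 19.7% and 19.1% of all genes. Without brain CD11c replicate 1, 7 were higher, against 3217 of all 16821 genes tested in that fit. Arsb, a sulfatase of dermatan sulfate, fell by 1.60, Arsg by 1.43 and Sort1, the sorting receptor sortilin, by 1.41 on the log2 scale. Acp5, the tartrate-resistant acid phosphatase of osteoclasts and macrophages, had 144 to 293 CPM in brain CD11c cells and 5.41 to 12.5 CPM in ischemic microglia (4.70, adjusted p = 8.17e-09). Ncoa7, which binds the V-ATPase, was higher by 1.85, and Igf2r was called at 1.80 (adjusted p = 0.0178). That call was lost without brain CD11c replicate 1 (1.20, adjusted p = 0.086), brain CD11c replicate 2 (1.60, adjusted p = 0.0528) or ischemic replicate 2 (1.68, adjusted p = 0.0513).

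**Figure D3:**
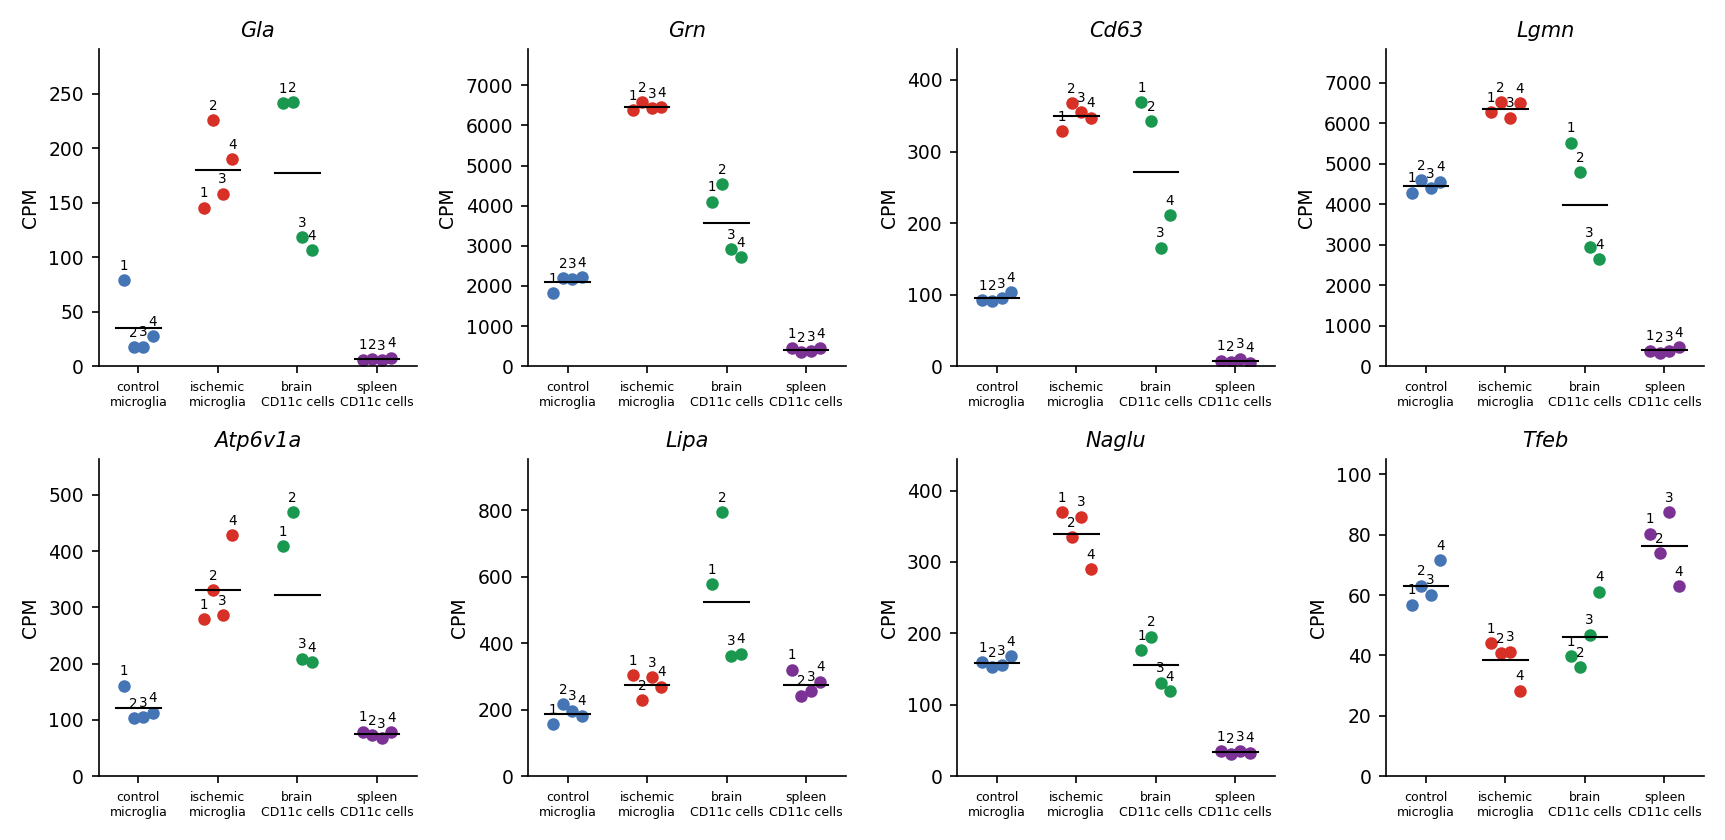
CPM of 8 lysosome genes in each library, with replicate numbers beside the points and bars at the group means. In Gla, Cd63, Lgmn, Atp6v1a and Lipa the brain CD11c replicates 1 and 2 lie above replicates 3 and 4, and Gla control replicate 1 (78.9 CPM) lies above the other control libraries.

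This comparison depended on which brain CD11c libraries were used. In 37 of the 46 genes (80.4%) replicates 1 and 2 were both above replicates 3 and 4, and in 4 (8.70%) both were below, against 30.4% and 26.1% of all genes. The median difference between the pairs was 0.55 on the log2 scale for the 46 genes and 0.03 for all genes. It was largest for Atp6v0d2 (3.58), Galns (1.48), Cd68 (1.17), Gla (1.11), Gusb (1.10) and Atp6v1a (1.09), and ran the other way for Atp6v0c (-0.66) and Tfeb (-0.50). With replicates 1 and 2 alone, 9 members were higher and 8 lower than in ischemic microglia, 19.6% and 17.4% against 20.9% and 20.2% of all genes, so that both shares were close to the background. With replicates 3 and 4 alone, 3 were higher and 28 lower, 6.52% and 60.9% against 19.8% and 21.0% of all genes. Leaving out replicate 3 gave 5 higher members and leaving out replicate 4 gave 4, against 19.6% and 19.5% of all genes. Of the 14 members lower with all 4 libraries, 14 were lower with replicates 3 and 4 alone and 7 with replicates 1 and 2 alone. The calls that ended with replicates 1 and 2 were those of Lgmn (-0.30, against -1.17 with replicates 3 and 4), Tpp1 (-0.24 and -1.05), Hexa (-0.48 and -1.07), Lamp1 (-0.25 and -0.99), Lamp2 (-0.15 and -0.70), Atp6v0a1 (-0.19 and -0.70) and Ids (-0.26 and -0.37). The calls of Atp6v0a1, Lamp2 and Ids as lower were lost in 6, 5 and 4 of the 8 fits that left out a library. Naglu was lower with either pair (-0.87 and -1.43), as was Grn (-0.58 and -1.19), and Lipa was higher with either (1.32 and 0.43). Galns turned from 0.44 with replicates 1 and 2 to -1.03 with replicates 3 and 4, Atp6v1b2 from 0.39 to -0.34 and Npc1 from 0.33 to -0.48, each past the threshold in both directions. Of the other V1 genes, Atp6v1g1 (0.37) and Atp6v1h (0.57) were higher with replicates 1 and 2, and Atp6v1a (-0.67) and Atp6v1c1 (-0.58) were lower with replicates 3 and 4. Atp6v1h was also called higher without brain CD11c replicate 3 (0.43), without brain CD11c replicate 4 (0.38) and without ischemic replicate 2 (0.39). The pairs also differed in their dendritic cell and border macrophage marker sums, given above. In replicates 1 to 4, red pulp macrophage marker sums were 1383, 1594, 689 and 580 CPM, and monocyte sums 1749, 1398, 1113 and 1114 CPM. Oligodendrocyte sums ran the other way, at 221, 209, 384 and 427 CPM. Genes with a count numbered 19379, 19482, 17932 and 16941. The part of cell mixture and of the number of genes detected in the difference was not tested.

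**Figure D4:**
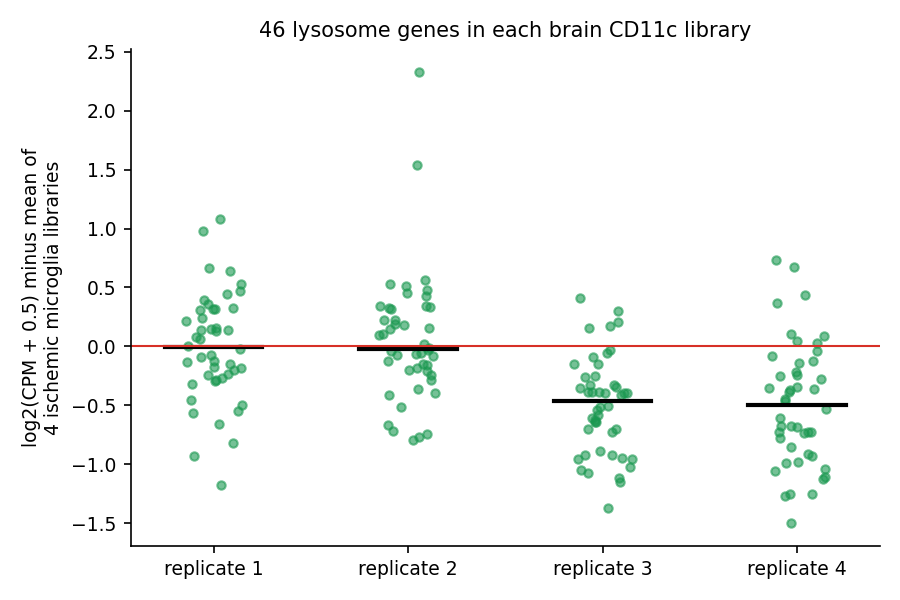
Each point is 1 of the 46 genes in a brain CD11c library, as log2(CPM + 0.5) minus the mean of the 4 ischemic microglia libraries, with bars at the medians. The medians lie at the ischemic level in replicates 1 and 2 (-0.01 and -0.02) and at -0.51 and -0.54 in replicates 3 and 4. The median values given here were computed from log2 CPM with a prior count of 2.

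Brain CD11c cells were compared with spleen CD11c cells, which carry the same reporter outside the brain. The brain libraries are those of the comparison before, so these calls are not independent of it either. Brain CD11c replicate 1 and spleen CD11c replicate 4 share a number in their titles. Whether they came from the same mouse is not recorded, and the test treated them as independent. Here 44 of the 46 genes were higher in the brain cells, 1 was lower and 1 was not called, 95.7% and 2.17% of the members against 31.2% and 33.0% of all genes. The median log2 fold change was 1.38 against -0.04 over all genes, 34 members were higher by at least 2-fold against 18.0% of all genes, and 42 separated the groups completely against 25.3%. All 14 V1 and V0 genes, both accessory subunits, all 7 membrane proteins and all 11 glycan enzymes were among the higher genes. With brain CD11c replicates 3 and 4 alone, 41 members were higher, against 27.6% of all genes. With library totals 42 were higher and 1 lower, against 3807 higher and 7113 lower of all 16345 genes. Of all calls, 34.9% were then of higher genes instead of 48.6%. All 8 microglial markers were higher in the brain libraries, as were 4 of 6 border macrophage markers, with the other 2 lower. Markers of B and plasma cells (5 of 5), neutrophils (6 of 6) and T and NK cells (6 of 6) were higher in the spleen libraries. So were 5 of 6 red pulp macrophage markers, with 1 lower. The part of these cell types in the differences was not tested.

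Cd63 had 369, 342, 166 and 211 CPM in brain CD11c replicates 1 to 4 and 7.86, 6.48, 10.2 and 4.93 CPM in the spleen libraries, a log2 fold change of 5.20 ± 0.27 (36.9-fold, adjusted p = 1.13e-10). Gla had 107 to 243 CPM in brain and 5.46 to 7.78 CPM in spleen cells (4.78 ± 0.49, adjusted p = 5.46e-07). Lgmn had 2642 to 5518 CPM and 330 to 473 CPM (3.35 ± 0.21, adjusted p = 1.05e-09). These gaps far exceeded the spread between libraries, including the gap between the brain CD11c pairs. Grn had 2712 to 4532 CPM in brain and 349 to 454 CPM in spleen cells (3.13 ± 0.17), and Gusb 490 to 1104 and 115 to 147 CPM (2.57 ± 0.22). Psap differed less, with 6004 to 9794 CPM against 2557 to 3627 CPM (1.39 ± 0.17). Idua (0.45 ± 0.11), Mcoln1 (0.54 ± 0.10) and Ids (0.60 ± 0.10) showed the smallest called increases, and the calls of Idua (0.17, adjusted p = 0.19) and Mcoln1 (0.27, adjusted p = 0.065) were lost when library totals replaced TMM. Smpd1 was not called (0.08 ± 0.13, adjusted p = 0.633), with 24.0 to 39.3 CPM in brain and 28.4 to 34.7 CPM in spleen cells.

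Tfeb was the 1 gene that was lower in the brain cells, with 39.7, 36.2, 46.9 and 61.1 CPM against 80.4, 73.8, 87.6 and 63.0 CPM in the spleen (-0.73 ± 0.16, adjusted p = 0.00098). The groups did not overlap, but brain replicate 4 and spleen replicate 4 were close. Tfe3 (1.34 ± 0.10) and Mitf (2.03 ± 0.16) were higher in the brain cells, and Tfec was lower (-1.73, adjusted p = 0.00202). Atp6v0d2 was called at 3.46 ± 1.05 (adjusted p = 0.0086) on very low values, 0.972, 3.25, 0.083 and 0.127 CPM in the brain replicates and 0.0232 to 0.206 CPM in the spleen. The call was lost without brain CD11c replicate 2 (1.95, adjusted p = 0.0873). In this comparison none of the 3 MiT members changed direction when library totals replaced TMM. Among the 85 other lysosome genes tested 57 were higher and 9 lower in the brain cells, 67.1% and 10.6% against 31.2% and 33.0% of all genes. Fnip2, a folliculin partner in nutrient sensing, was higher by 3.37. Tcirg1 was higher by 1.57 (adjusted p = 1.35e-08), in the same direction as the pump members.

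**Figure D5:**
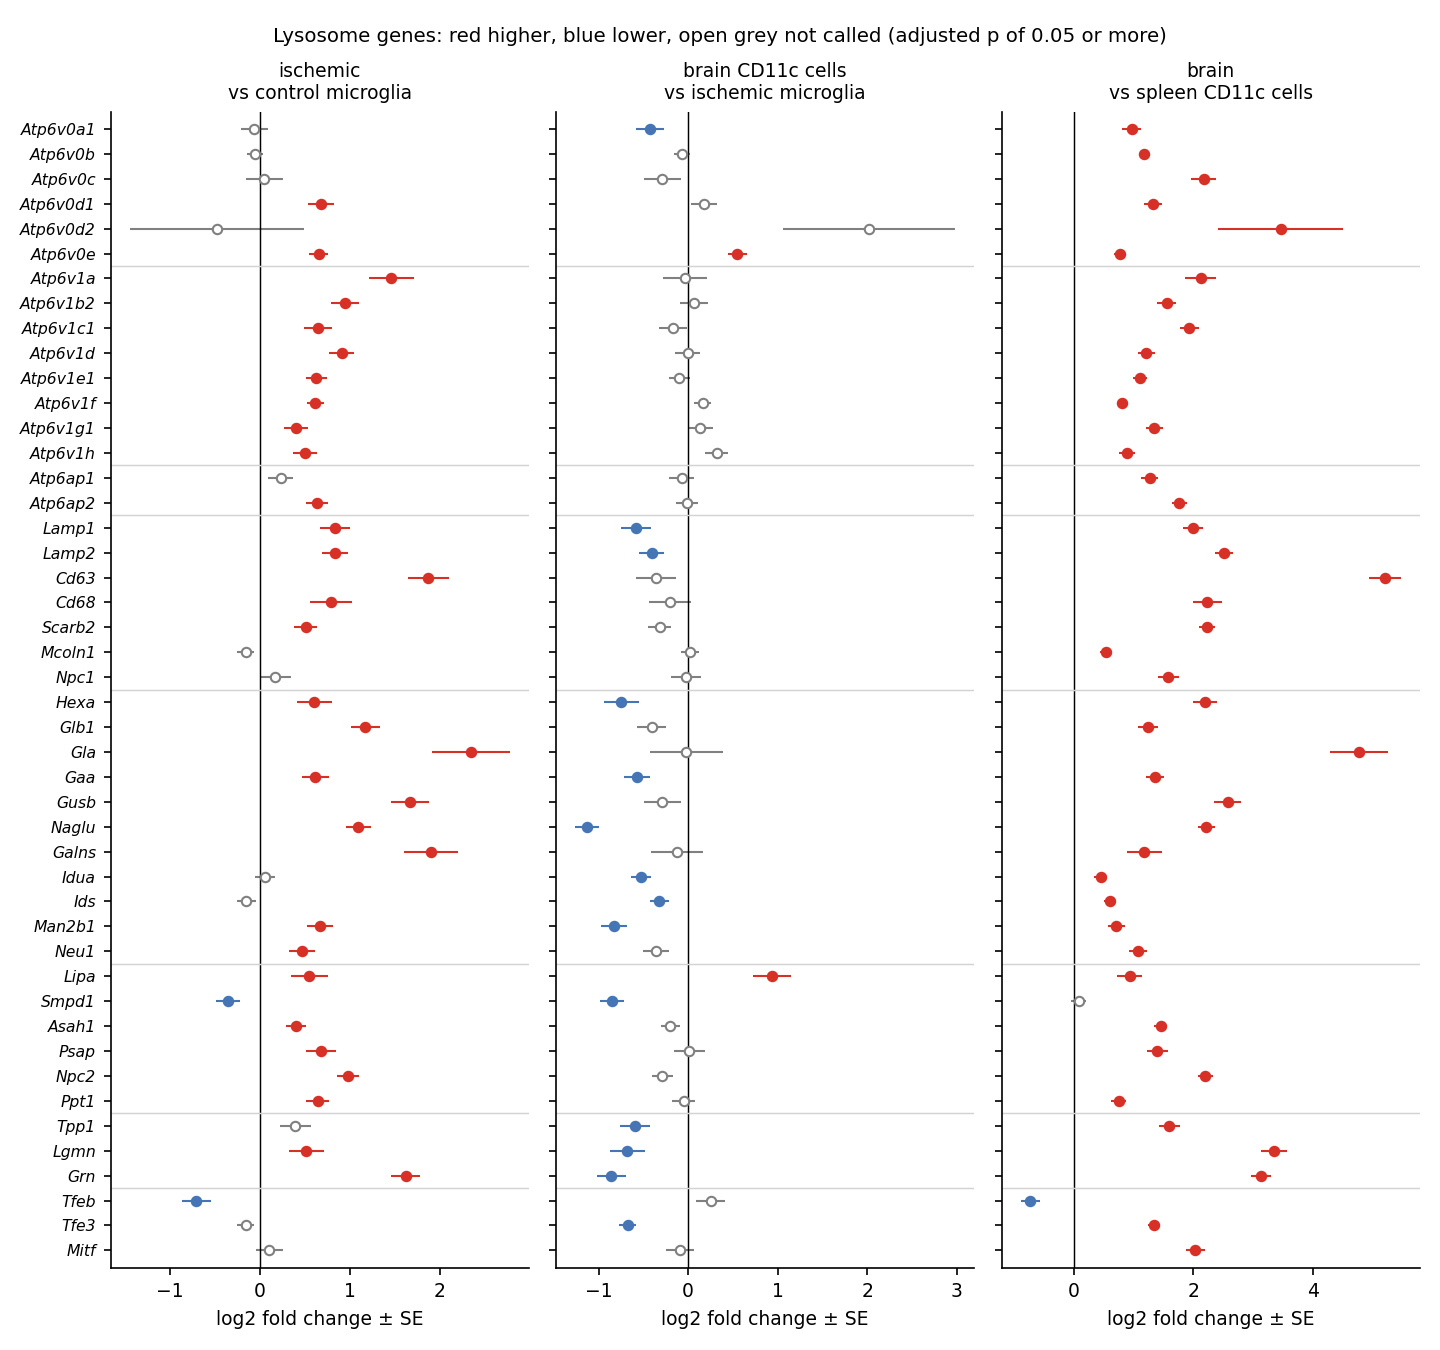
Log2 fold changes of the 46 genes (points) with their standard errors (bars) in 3 comparisons, grouped by role from the V0 genes at the top to the MiT factors at the bottom. Red and blue points passed the test. The V1 genes are all higher in ischemic than in control microglia, none is called between brain CD11c cells and ischemic microglia with all 4 libraries, and Tfeb is the only blue point in the right panel.

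Spleen CD11c cells were also compared with control microglia, the groups not labelled ischemic. Only 2 genes were higher in the spleen cells and 37 lower, 4.35% and 80.4% of the members against 37.1% and 31.7% of all genes. The median log2 fold change was -1.22 against 0.11 over all genes, and 26 members were lower by at least 2-fold, against 20.0% of all genes. With library totals 4 were higher and 33 lower, against 7406 higher and 4184 lower of all 16345 genes. Of all calls, 63.9% were then of higher genes instead of 53.9%. Cd63 was lower by a log2 fold change of -3.70 ± 0.25, Lgmn by -3.52 ± 0.21, Gla by -2.46 ± 0.44, Atp6v0c by -2.41 ± 0.22 and Grn by -2.37 ± 0.17, each with no overlap between libraries. Gla was at -1.66 without control replicate 1. The higher genes were Lipa (0.55 ± 0.21, adjusted p = 0.0254), whose adjusted p was 0.056 without control replicate 1 and 0.0699 without spleen replicate 1, and Atp6v0e (0.43 ± 0.10, adjusted p = 0.00135). Atp6v1f (-0.03 ± 0.09), Atp6v1h (-0.07 ± 0.13), Ppt1 (-0.16 ± 0.13) and Tfeb (0.28 ± 0.16) were among the 7 genes not called. Among the other lysosome genes, Arsb fell by 3.70 and Rptor, a part of the mTORC1 kinase complex at the lysosome, by 2.73 on the log2 scale. Acp5, by contrast, had 0.56 to 1.16 CPM in control microglia and 192 to 257 CPM in the spleen cells, and Igf2r was higher by 5.17.

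Ordered by mean level, 30 of the 46 genes were highest in ischemic microglia, 9 in brain CD11c cells, 6 in control microglia and 1, Tfeb, in spleen CD11c cells. The first 2 counts are 65.2% and 19.6% of the members, against 14.7% and 20.6% of all genes. The commonest order, in 22 genes, ran from ischemic microglia over brain CD11c cells and control microglia down to the spleen cells. Neighbours in the order were often not told apart. Of the 30, 8 were called against the next group, namely Lamp1, Lamp2, Hexa, Gaa, Naglu, Man2b1, Lgmn and Grn. Of the 9, Atp6v0e and Lipa were. These are 17.4% and 4.35% of the members, against 2.43% and 6.63% of all genes with the same rank and call. The spleen cells were lowest for 42 genes and called against the next group for 36, all but Atp6v0d2, Atp6v1d, Atp6v1f, Atp6v1h, Smpd1 and Ppt1, which is 91.3% and 78.3% of the members against 32.5% and 20.1% of all genes. Across all genes, 58.9% were called between brain CD11c cells and control microglia and 68.5% between spleen CD11c cells and ischemic microglia. The top rank depended on the scaling: with library totals in place of TMM, 19 genes were highest in ischemic microglia and 17 in brain CD11c cells, while 38 were lowest in the spleen. Lamp2 and Grn were the genes with all 3 neighbouring steps called, from ischemic microglia (Grn 6462 ± 85.3 CPM) over brain CD11c cells (3564 ± 889) and control microglia (2102 ± 189) to the spleen cells (407 ± 53.5; SD, n = 4).

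Some values carry limits of counting. The exons of Atp6v0b, Lamp1 and Hexa overlap a gene on the opposite strand by 9.3 to 12.8% of their length, and those of Glb1 overlap Tmppe on the same strand by 5.5%. The kit marks strand, but the strand setting of the counting is not given in the sources used here, so reads in these stretches may be shared. The 2 processed copies of Atp6v0c had at most 0.506 CPM, against 107 CPM for Atp6v0c.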

How the data were processed

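The data are a table of raw read counts per gene for 16 libraries, deposited by the authors. Per the labels' protocols, cells were sorted by their reporter with no staining, and a kit that selects poly(A) RNA and keeps the strand was used. Per the submitters' processing notes, FastQC 0.11.5, STAR 2.5.3a and GRCm38 were used. The counting program, its strand setting and the annotation release: not given in the sources used here. Every column belonged to a sample and held whole numbers. Depth was 31569304 to 48245164 counts. No pair of libraries within a group agreed within sampling noise (smallest chi-square per degree of freedom 9.41 over 24 pairs).

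Gene names (for 50376 IDs, with 224 unnamed) and exon lengths came from GENCODE M21, promoters from RefSeq on GRCm38.p6. Genes were tested with edgeR 4.0.16 under R 4.3.3 (robust quasi-likelihood F test, two-sided). TMM factors and filterByExpr preceded 1 model of the 16 libraries, with group means and no covariate. P-values were adjusted by Benjamini-Hochberg over 16345 genes, with a threshold of 0.05. Each SE of a log2 fold change is its absolute value divided by the square root of its F statistic. The script was tested on simulated data. Replicates are numbered in accession order.

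The members, the lists of other lysosome genes and the cell markers were chosen with earlier results of these data known. The text names, of the called members with at least 20 CPM in the higher group, the 5 with the largest log2 difference in each direction, the 3 highest per kilobase in each group, a set of fixed names, and up to 3 other lysosome genes per direction, except a gene that is not reported here. Further members stand with their role and their call. Alternatives were relative log expression size factors, library totals, no filter, DESeq2 1.42.0, limma-voom (limma 3.58.1), only the 8 libraries compared, each library left out, and either pair of brain CD11c libraries alone.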

Additional observations from a re-analysis of the deposited data

Results flagged for a closer look

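Within groups of 4 libraries, 188 sets of values were examined, 184 for the 46 genes and 4 for their summed share of reads. Of these, 11 (5.85%) held a library far from the other 3, each for a single gene, and chance alone gives about 1 in 20. In control microglia, replicate 1 was the highest for Gla at 78.9 CPM (others 17.6 to 27.3) and for Atp6ap2 at 264 CPM (others 204 to 206), and the lowest for Grn at 1819 CPM (others 2185 to 2215). Control replicate 2 was the highest for Asah1 at 571 CPM (others 514 to 517). In ischemic microglia, replicate 2 was the lowest for Hexa at 1036 CPM (others 1684 to 1775), for Ppt1 at 420 CPM (others 519 to 539) and for Tpp1 at 584 CPM (others 672 to 682). The same library was the highest for Atp6ap1 at 572 CPM (others 551 to 555). In spleen CD11c cells, replicate 2 was the lowest for Atp6v0c at 13.3 CPM (others 15.7 to 15.8). Spleen replicate 1 was the highest for Cd68 at 287 CPM (others 189 to 201), and spleen replicate 4 the highest for Glb1 at 73.5 CPM (others 50.5 to 51.9).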

How the results depend on the processing

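Among called members, 27 of 34 (ischemic against control microglia), 9 of 16 (brain CD11c cells against ischemic microglia), 41 of 45 (brain against spleen CD11c cells) and 34 of 39 (spleen CD11c cells against control microglia) kept direction and call under every alternative run. Library totals in place of TMM moved the median of all genes to -0.20, 0.10, -0.30 and 0.34 in these comparisons, from -0.05, 0.00, -0.04 and 0.11. In ischemic against control microglia they gave 4 lower members, 14 lower other lysosome genes and a member median of 0.47. They gave 4 higher members in brain CD11c cells against ischemic microglia, 15 lower other lysosome genes in brain against spleen, and 4 higher members with a median of -0.99 in spleen cells against control microglia, where Fuca1 turned to 0.0076. By order of levels they put 6 members lowest in control microglia, 19 highest in ischemic microglia, 17 highest and 1 lowest in brain CD11c cells. Without the filter, ischemic against control microglia had 1 lower member, 5 lower other genes and a median of 0.66. Brain CD11c cells against ischemic microglia then had 7 higher other genes, and spleen cells against control microglia 1 higher member and a median of -1.29. With only the 8 libraries compared, the median in ischemic against control microglia was 0.66 (0.6556). With brain CD11c replicates 1 and 2, the comparison with ischemic microglia gave 9 higher and 8 lower members and 19 higher other genes, and Npc1 (0.33) and Galns (0.44) reversed. With replicates 3 and 4 it gave 28 lower members, and Atp6v1b2 (-0.34), Dmxl2 (-0.074), Slc17a5 (-0.38) and Igf2r (-0.087) reversed. Against the spleen, the same pair reversed Aga (-0.086), Hyal2 (-0.43), Pld3 (-0.0023), Slc38a9 (0.33) and Igf2r (-1.46). Leaving out each library gave 27 to 30 higher and 1 to 2 lower members and medians of 0.55 to 0.61 in ischemic against control microglia. It gave 1 to 2 higher members in spleen cells against control microglia. In brain CD11c cells against ischemic microglia it gave 2 to 5 higher members, 11 to 16 lower members and 7 to 14 higher other genes. The cause of these changes was not tested. No paired analysis was possible because the groups compared share fewer than 2 numbers in their titles. The exception is ischemic microglia and spleen CD11c cells, set side by side only in the order of levels. Their shared numbers belong to different mouse lines. Brain CD11c replicate 1 and spleen CD11c replicate 4 share a number within 1 mouse line and were treated as independent.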
